A study of Homo sapiens with 24 samples.

Results

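Total RNA of LNCaP cells that received a miR-203 plasmid was compared directly with total RNA of LNCaP cells that received a miR-205 plasmid. The arrays were chosen by their titles: 3 arrays of total RNA after miR-203 reconstitution and 3 after miR-205 reconstitution, 6 of the 24 arrays of the series. The series profiled direct targets of microRNAs in this line. LNCaP is an androgen-responsive human prostate cancer line with luminal features, and the labels call the tumor stage early. Both groups were nucleofected with 2.5 µg of plasmid for their microRNA, and 2 µg of Trizol-extracted RNA was put on each Affymetrix oligonucleotide array. The 18 other arrays of the series (miR-130a, scramble control, and AGO2-bound RNA of all transfections) entered no difference given here. They were used to choose a probe set for each gene and to filter dim genes, by means over all 24 arrays, and in alternative fits. A difference between these groups does not say which of the microRNAs moved a gene.

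A microRNA is a short RNA that guides an Argonaute protein to messenger RNAs, mostly by pairing of its seed, bases 2 to 8, with sites in the 3' untranslated region, and so lowers their stability and translation. miR-203 is known from skin, where it limits the growth of basal progenitor cells, and miR-205 from the basal layer of epithelia including the prostate. Both are often low in prostate cancer. The labels give neither the expressed precursor nor the arm, so the main mature strand of each human gene is shown, taken from RefSeq (GRCh38.p14). They are printed to show that the groups compared carry unlike guides. Capitals mark the seed in the mature strands and the mature strand in the hairpins.
hsa-miR-203a-3p, chr14:104117469-104117490, plus strand: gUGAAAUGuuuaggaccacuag
hsa-miR-205-5p, chr1:209432166-209432187, plus strand: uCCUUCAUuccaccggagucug
MIR203A, chr14:104117405-104117514, plus strand: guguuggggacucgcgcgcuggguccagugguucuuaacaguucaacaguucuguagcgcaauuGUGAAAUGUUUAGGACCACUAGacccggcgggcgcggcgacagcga
MIR205, chr1:209432133-209432242, plus strand: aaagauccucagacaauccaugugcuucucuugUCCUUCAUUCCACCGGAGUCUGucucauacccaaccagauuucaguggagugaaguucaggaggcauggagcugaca
At 0 of the 7 seed positions do both carry the same base. Among the 2370 mature human microRNAs of the table, each seed occurs in 1 microRNA alone.

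Every value below is a level on the authors' log2 scale or a difference of such levels, miR-203 minus miR-205, with the standard error of limma's fit. Adjusted p is limma's Benjamini-Hochberg value over all 6782 genes tested, and genes with an adjusted p under 0.05 are called. The labels give the arrays of a group as biological replicates and name no separate cultures, so a p-value reflects the spread among the 3 arrays of a group, which may be technical. The lowest value of the scale, its floor, was 2.34684 on the miR-203 arrays and 2.34733 on the miR-205 arrays, so both groups appear to come from different normalization runs. Run and transfection cannot be told apart. Spiked control probe sets, which hold RNA added in the laboratory, differed by a median of -0.04 over the 41 above the floor, with a range of -0.24 to 0.29. Between 39.9% and 40.6% of an array's probe sets lay within 0.05 of the floor. Each array correlated more closely with an array of its own group (highest r at least 0.996) than with any of the other group (highest r at most 0.987). The RNA came from whole cultures, so a change in the share of cells that make a transcript and a change in RNA per cell cannot be told apart.

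The groups differed widely. Of the 6782 genes, 2555 were called, 37.7%: 1411 were higher after miR-203 (20.8%) and 1144 were lower (16.9%). At least 2-fold differences were called at 315 genes (4.64%), 136 of them higher (2.01%) and 179 lower (2.64%). By limma's treat, which tests for a difference beyond 1.5-fold, 88 genes were higher (1.3%) and 136 lower. The 3 arrays of a group did not overlap those of the other at 52.6% of the genes, 29.3% with miR-203 above and 23.3% below. The median difference over all tested genes was 0.05. Every list below is set against these shares and this median, and the plot of list members shows them together.

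**Figure D1:**
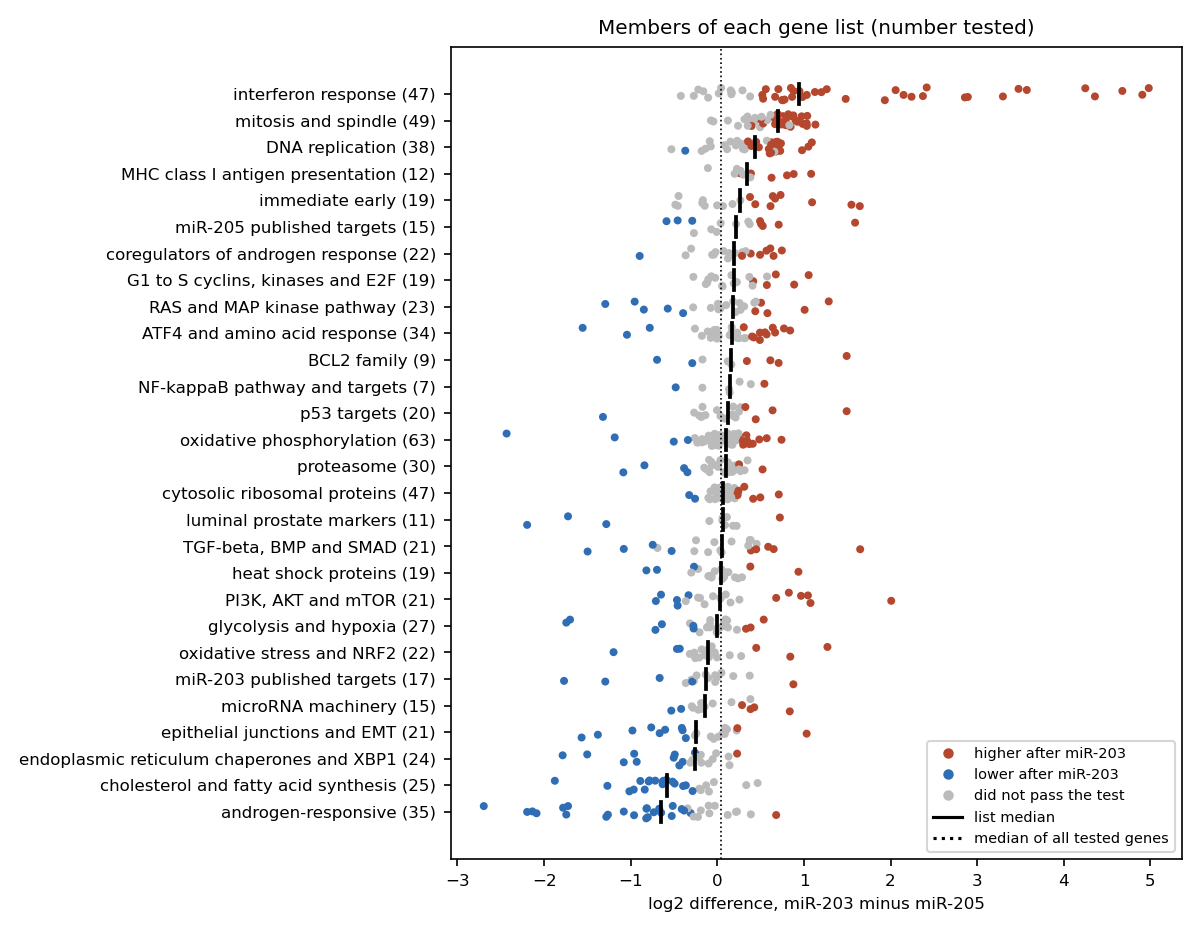
Log2 difference in total RNA, miR-203 minus miR-205 (horizontal axis), for every tested member of each gene list with at least 5 tested members; each point is a gene, the bar is the list median and the dotted line the median of all tested genes. The interferon list (median 0.95) lies farthest to the right, and the androgen-responsive (-0.65) and cholesterol and fatty acid (-0.59) lists lie farthest to the left.

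Luminal markers went both ways. Of 13 luminal prostate markers on the array, 11 were tested, and their median difference was 0.06. Among the 11, 3 were lower (27.3%, against 16.9% of all genes) and 1 was higher (9.09%, against 20.8%). The summed level of the 13 (log2 of the sum) was 12.5 to 12.6 after miR-203 and 13.2 to 13.3 after miR-205, without overlap. That sum is taken on the linear scale, where the brightest marker, KLK3, weighs most (mean level 10.49 after miR-203 and 12.21 after miR-205). It therefore does not describe the luminal markers as a set. KRT8 and KRT18, keratins of luminal cells, and HOXB13, a homeobox factor of the prostate, differed by 0.06, 0.11 and 0.18 without a call. KLK2, KLK3 and TMPRSS2 were lower and ACP3, prostatic acid phosphatase, was higher. All 3 basal keratins on the array, KRT5, KRT14 and KRT15, were at the floor in both groups.

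Interferon response genes were the highest after miR-203. Type I interferon is made by cells that sense foreign or misplaced nucleic acid, and it acts through its receptor on genes with an interferon-stimulated response element (ISRE). Of 47 tested members, 35 were higher after miR-203 (74.5%, against 20.8% of all genes) and 21 of them by at least 2-fold. The limma fit called 0 lower, and 1 was lower at an unadjusted p under 0.05. The list median was 0.95, against 0.05 over all genes. A further 17 members on the array lay below the signal filter.

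The sensors of foreign RNA came first in the list's order of action. RIGI, a sensor of short double-stranded and 5'-triphosphate RNA, had levels of 5.94, 5.27 and 5.72 on the miR-203 arrays and 2.57, 2.89 and 2.9 on the miR-205 arrays. All miR-203 arrays lay far above all miR-205 arrays, which were close to the floor, and the difference was 2.86 ± 0.18 (adjusted p = 0.000131, 7.25-fold). IFIH1, the sensor MDA5 of long double-stranded RNA, had 6.53, 6.59 and 7.05 after miR-203 and 4.56, 4.10 and 4.79 after miR-205, a difference of 2.24 ± 0.21. Other sensors were not called. EIF2AK2, the kinase PKR, differed by -0.27 (adjusted p = 0.128). DHX58, the third member of the RIGI family, had 2.48, 2.35 and 2.35 after miR-203 and lay at the floor on all miR-205 arrays, so no difference could be measured. IFNB1, which encodes interferon beta, had levels of 2.93, 2.47 and 2.52 after miR-203 and lay at the floor on all 3 miR-205 arrays. Its difference, at least 0.29, was not called (adjusted p = 0.12).

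The signalling members gave smaller differences. IRF9, the DNA-binding part of the interferon-activated complex, had 4.86, 4.53 and 4.52 after miR-203 and 3.11, 2.86 and 3.49 after miR-205 (1.48 ± 0.17, adjusted p = 0.00114). The groups did not overlap, as at 29.3% of all tested genes in this direction. IRF7, which amplifies interferon production, differed by 0.88 ± 0.21 and IRF1 by 0.67 ± 0.09. The receptor chain IFNAR2 had 3.8, 4.28 and 3.91 after miR-203 and 4.13, 4.58 and 4.54 after miR-205, overlapping levels with an adjusted p of 0.0881. The kinase JAK2 and the inhibitor SOCS1 were not called either.

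The antiviral effectors held 4 of the 5 largest rises of all tested genes. OASL, an oligoadenylate synthetase-like protein that enhances RIGI signalling, had levels of 8.92, 8.68 and 8.65 after miR-203 and 4.01, 3.44 and 3.85 after miR-205. No miR-205 array came within 4 log2 units of a miR-203 array, and the difference was 4.98 ± 0.16 (31.6-fold, adjusted p = 8.05e-06). The IFIT proteins bind foreign RNA ends and block their translation. IFIT2 had 7.97, 7.47 and 7.80 after miR-203 and 2.83, 2.86 and 2.84 after miR-205 (4.91 ± 0.13). IFIT3 had 8.06, 7.67 and 7.75 after miR-203 and 3.26, 3.30 and 2.89 after miR-205 (4.68 ± 0.15, 25.6-fold). IFIT1 had 9.89, 9.93 and 9.99 after miR-203 and, unlike IFIT2 and IFIT3, was well above the floor after miR-205 as well, at 5.64, 5.82 and 5.60 (4.25 ± 0.09, 19.0-fold, adjusted p = 1.15e-06). RSAD2, or viperin, which makes a chain-terminating nucleotide, had 5.92, 6.17 and 5.71 after miR-203. It lay within 0.05 of the floor on all miR-205 arrays, so it was at least 11.9-fold higher (difference at least 3.57, adjusted p = 1.09e-05).

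Chemokines and ubiquitin-like genes followed the same direction. CXCL10, a chemokine that attracts activated T cells, had 7.0, 6.79 and 6.87 after miR-203 and 2.44, 2.58 and 2.56 after miR-205 (4.36 ± 0.09, 20.5-fold). CCL5 had 5.86, 5.57 and 5.69 after miR-203 and 2.51, 2.36 and 2.36 after miR-205 (3.30 ± 0.10). On 2 of the 3 miR-205 arrays CCL5 lay within 0.05 of the floor, where it has no measured level, so no fold is given. Both were near the floor after miR-205 and well measured after miR-203. CXCL11 was at the floor on all miR-205 arrays and was at least 4.17-fold higher after miR-203. ISG15, a ubiquitin-like protein conjugated to viral and host proteins, was bright in both groups, at 10.75, 10.79 and 10.76 after miR-203 and 8.64, 8.51 and 8.71 after miR-205 (2.15 ± 0.08, 4.44-fold). HERC5, the ligase that attaches ISG15, differed by 3.48 ± 0.17, and USP18, the protease that removes it, by 1.2 ± 0.16. The membrane proteins IFITM1, IFITM2 and IFITM3, which hinder entry of viruses, differed by 2.42 ± 0.31, 0.85 ± 0.08 and 0.78 ± 0.10.

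**Figure D2:**
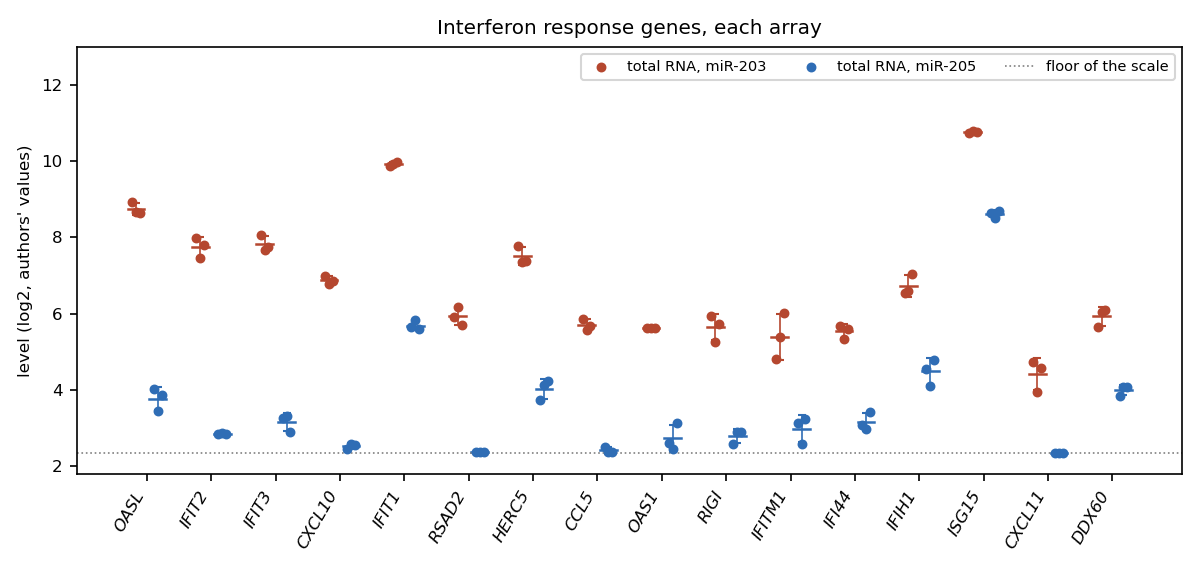
Levels (log2, the authors' values) of 16 interferon response genes on each of the 3 total RNA arrays after miR-203 (left of each pair) and after miR-205; bars are means, whiskers SD, and the dotted line is the floor of the scale. At each gene shown, chosen among those called higher, the miR-203 points lie above the miR-205 points, and CXCL11 and RSAD2 lie on the floor after miR-205.

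Markers of leukocytes, cells that also make interferon-inducible transcripts, are given beside this list. Of 8 leukocyte markers on the array, 7 were at the floor in both groups, among them PTPRC, the common leukocyte antigen, and CD14 of monocytes. LCP1, an actin-bundling protein that some carcinoma lines also express, was lower after miR-203, at 7.28, 7.42 and 7.30 against 8.01, 8.12 and 8.0 after miR-205. The summed level of the leukocyte markers (log2 of the sum) was 7.58 to 7.69 after miR-203 and 8.19 to 8.29 after miR-205. With the 7 others at the floor, that sum follows LCP1 and does not describe the leukocyte markers as a set. The count of higher interferon genes moved little with single arrays: 32 to 34 members were higher when any 1 of the 6 arrays was left out.

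Most start regions of the interferon genes carried the ISRE. It was searched as GAAA, any 2 bases and GAAA again, on both strands of RefSeq promoters (GRCh38.p14), which reach from 250 bases before to 50 after the start site. It was present in 24 of the 39 tested members with a promoter in the table (61.5%), against 169 of 5717 tested genes (2.96%) and 996 of all 27305 promoters (3.65%). Among called genes of the whole array it was present in 4.72% of those higher after miR-203 and 1.05% of those lower. The higher genes with a match numbered 55, and 21 of them were called members of this list. The 4.72% is therefore not separate from the list and shows no wider pattern. A kappaB motif (GGGA, any base, TT, any base, CC) was present in 4 of the 39. RSAD2 was among the members without an ISRE in this window. The 4 promoters printed belong to genes with some of the largest differences, and capitals mark the ISRE matches, which read as TTTC runs where the match is on the other strand.
IFIT1 promoter, chr10:89392373-89392672, plus strand: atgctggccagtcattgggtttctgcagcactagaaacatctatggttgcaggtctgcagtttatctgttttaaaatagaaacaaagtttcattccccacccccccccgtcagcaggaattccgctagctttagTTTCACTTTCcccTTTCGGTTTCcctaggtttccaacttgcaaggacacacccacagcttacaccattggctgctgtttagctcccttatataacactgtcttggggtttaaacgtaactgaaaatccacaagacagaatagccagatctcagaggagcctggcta
IFIT3 promoter, chr10:89327747-89328046, plus strand: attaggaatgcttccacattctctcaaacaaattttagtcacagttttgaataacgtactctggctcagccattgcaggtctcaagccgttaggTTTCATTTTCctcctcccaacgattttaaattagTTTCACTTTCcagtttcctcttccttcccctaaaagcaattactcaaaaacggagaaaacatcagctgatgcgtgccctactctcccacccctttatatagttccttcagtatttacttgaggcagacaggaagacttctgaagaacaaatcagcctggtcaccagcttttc
ISG15 promoter, chr1:1013247-1013546, plus strand: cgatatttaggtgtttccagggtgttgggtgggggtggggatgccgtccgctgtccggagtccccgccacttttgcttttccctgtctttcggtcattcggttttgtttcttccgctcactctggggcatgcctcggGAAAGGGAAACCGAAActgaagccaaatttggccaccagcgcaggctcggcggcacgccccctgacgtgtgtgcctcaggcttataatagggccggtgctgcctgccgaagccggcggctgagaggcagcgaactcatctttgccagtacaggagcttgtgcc
CXCL10 promoter, chr4:76023448-76023747, minus strand: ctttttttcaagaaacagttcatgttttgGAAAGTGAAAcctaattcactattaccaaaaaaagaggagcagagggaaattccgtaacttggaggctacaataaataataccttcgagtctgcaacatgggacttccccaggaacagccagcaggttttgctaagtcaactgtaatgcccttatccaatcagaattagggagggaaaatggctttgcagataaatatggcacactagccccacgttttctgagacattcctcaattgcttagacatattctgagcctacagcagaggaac
Counted from the start site, the first match begins at -116 in IFIT1, -156 in IFIT3, -113 in ISG15 and -221 in CXCL10. The first 3 hold a second match, at -103, -122 and -107, which overlaps the first in ISG15. A match is a description of these letters and does not show binding.

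Class I antigen presentation, which shows peptides from inside the cell to T cells and is also raised by interferon, was higher at 6 of 12 tested members. That was 50%, against 20.8% of all genes, with a median of 0.34. HLA-E had 7.14, 7.11 and 6.95 after miR-203 and 5.85, 5.96 and 6.14 after miR-205 (1.08 ± 0.10, adjusted p = 0.000531). The groups lay apart by about 1 log2 unit. The peptide trimmer ERAP1 differed by 0.88 ± 0.14, although by 0.18 without a call when its probe sets were averaged. TAP1, a peptide transporter, differed by 0.80 ± 0.16 and HLA-F by 0.63 ± 0.09, while B2M, the shared light chain, differed by 0.23 without a call. HLA-B, at 0.39, lost its call without miR-203 replicate 1 or 2 or miR-205 replicate 1 or 3 (0.32 to 0.37), and HLA-C, at 0.26, without any array but miR-203 replicate 3 (0.20 to 0.27). TAP1 and HLA-B were not called with no filter on low signal. HLA genes are near copies of each other, so probes may share their signal. By limma 0 members were lower, also at an unadjusted p under 0.05. The ISRE was present in 8 of 11 promoters of this list (72.7%), against 2.96% of tested genes. Among called members it was present in 3 of 5 (60%), so it was not more frequent in those. NF-kappaB genes, the other common branch downstream of RNA sensors, were mostly too dim to test. Of 20 on the array 7 were tested, 1 was higher (TNFAIP3, 0.54) and 1 lower (NFKBIA, -0.48). Each was 14.3% of those tested, against 20.8% of all genes higher and 16.9% lower. TNFAIP3 lost its call without miR-203 replicate 3 or any miR-205 array (0.53 to 0.58), and NFKBIA without miR-203 replicate 2 (-0.43) or miR-205 replicate 1 (-0.44).

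Androgen-responsive genes were lower after miR-203. Androgens keep luminal prostate cells differentiated, and LNCaP cells grow and secrete in response to them. Of 35 tested genes known to respond to androgen, 23 were lower after miR-203 (65.7%, against 16.9% of all genes), 10 of them by at least 2-fold, and 1 was higher. The list median was -0.65.

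FKBP5, a cochaperone of steroid receptors and among the strongest androgen responses in this line, had levels of 2.80, 2.93 and 3.12 after miR-203 and 5.71, 5.79 and 5.43 after miR-205. It was close to the floor after miR-203, and its difference of -2.70 ± 0.13 was the largest fall of all tested genes (6.48-fold lower, adjusted p = 4.19e-05). The secreted kallikreins are proteases of seminal fluid. KLK3, prostate-specific antigen, had 10.35, 10.72 and 10.40 after miR-203 and 12.27, 12.26 and 12.11 after miR-205 (-1.72 ± 0.12, adjusted p = 0.000157). KLK2 had 7.41, 7.98 and 7.60 after miR-203 and 9.84, 9.94 and 9.79 after miR-205 (-2.20 ± 0.15). At both kallikreins the 3 miR-203 arrays lay more than 1 log2 unit below the lowest miR-205 array. TMPRSS2, the membrane protease whose promoter is often fused to ERG in prostate cancer, differed by -1.28 ± 0.10.

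The other large falls of the list were genes of varied roles. MAF, a leucine zipper factor, had 5.88, 5.91 and 6.05 after miR-203 and 7.99, 8.13 and 8.12 after miR-205 (-2.13 ± 0.09). ELL2, an RNA polymerase elongation factor, had 3.24, 3.13 and 3.01 after miR-203 and 5.45, 5.20 and 5.00 after miR-205 (-2.09 ± 0.13). ABCC4, an exporter of cyclic nucleotides, differed by -1.78 ± 0.13 and NDRG1, a stress-responsive gene that hypoxia also raises, by -1.74 ± 0.23. INPP4B, a phosphoinositide phosphatase, was the exception. It had 3.96, 3.89 and 3.98 after miR-203 and 3.33, 3.20 and 3.27 after miR-205 (0.68 ± 0.08, adjusted p = 0.000978). ACP3, which is also secreted by the prostate, was likewise higher, at 8.12, 8.21 and 8.30 after miR-203 and 7.46, 7.49 and 7.52 after miR-205 (0.72 ± 0.08). Between 21 and 25 members were lower when any 1 array was left out.

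Coregulators of androgen response moved less. Of 22 tested, 7 were higher (31.8%, against 20.8% of all genes), with a median of 0.19. Only 1, the coactivator NCOA6 (-0.90 ± 0.11), was lower. The coactivator NCOA2 had 7.69, 7.76 and 7.86 after miR-203 and 7.12, 7.08 and 7.16 after miR-205 (0.65 ± 0.08), but 0.28 without a call when its 3 probe sets were averaged. The pioneer factor FOXA1 differed by -0.04. Without miR-205 replicate 1, and also without miR-205 replicate 3, 4 coregulators were higher.

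**Figure D3:**
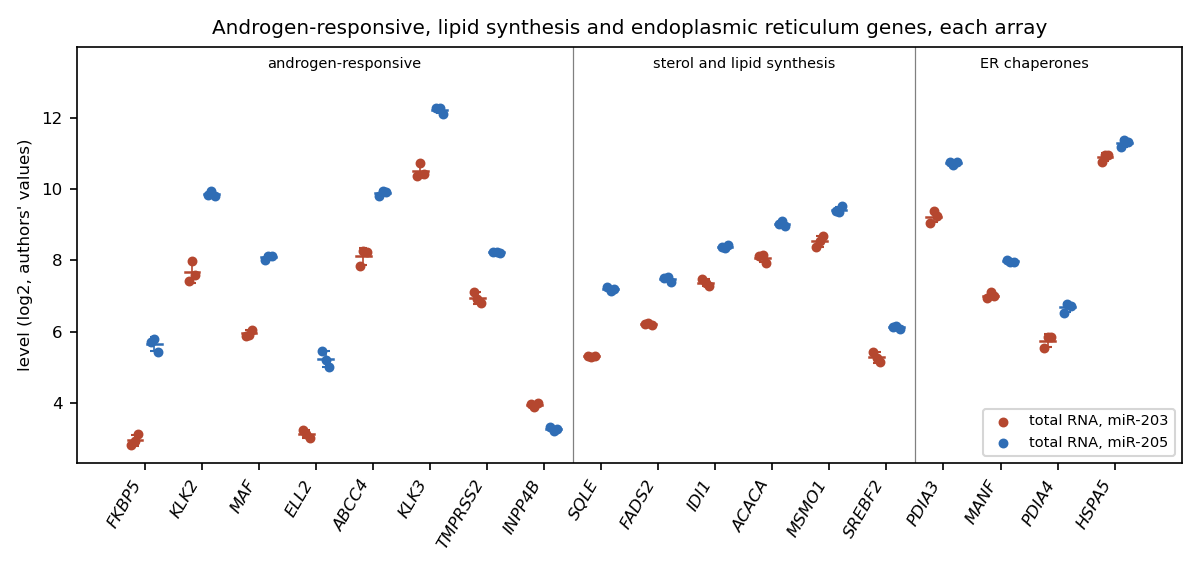
Levels (log2, the authors' values) of 8 androgen-responsive, 6 lipid synthesis and 4 endoplasmic reticulum genes on each of the 3 total RNA arrays after miR-203 (left of each pair) and after miR-205; bars are means and whiskers SD. All genes shown are lower on every miR-203 array except INPP4B, which is higher on every one.

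Most cholesterol and fatty acid synthesis genes were lower after miR-203. These genes are switched on together by the SREBP factors when membranes lack sterol, and androgen also raises them in LNCaP cells. Of 25 tested, 18 were lower (72.0%, against 16.9% of all genes) and the median was -0.59. The 7 not called were the enzymes MVK, PMVK, TM7SF2, NSDHL, EBP and SC5D, and INSIG1. By limma 0 were higher, and 1 was higher at an unadjusted p under 0.05. Limma's treat for a difference beyond 1.5-fold called 3 of the 25 lower.

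The regulators themselves were among the lower genes. SREBF2, the factor for sterol synthesis, had 5.44, 5.26 and 5.14 after miR-203 and 6.13, 6.15 and 6.07 after miR-205 (-0.84 ± 0.10, adjusted p = 0.00105). SCAP, which escorts the SREBP factors out of the endoplasmic reticulum, differed by -0.79 ± 0.13 and SREBF1 by -0.52. INSIG1, which holds SCAP back, had 7.48, 7.91 and 8.17 after miR-203 and 7.36, 7.31 and 7.49 after miR-205. These groups overlapped (0.46, adjusted p = 0.0685), and its probe sets ran from -0.73 to 0.46.

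Among the enzymes SQLE, squalene epoxidase, differed most. It had 5.33, 5.29 and 5.33 after miR-203 and 7.25, 7.12 and 7.20 after miR-205 (-1.88 ± 0.07, 3.67-fold lower, adjusted p = 2.01e-05), and its 3 probe sets ran from -1.88 to -1.35. IDI1, an isomerase of the mevalonate route, had 7.47, 7.36 and 7.27 after miR-203 and 8.37, 8.34 and 8.43 after miR-205 (-1.02 ± 0.08). The sterol demethylation enzyme MSMO1 differed by -0.89 ± 0.11 and HMGCS1, at the entry of the route, by -0.59 ± 0.10. On the fatty acid side FADS2, a desaturase, had 6.22, 6.24 and 6.18 after miR-203 and 7.5, 7.54 and 7.40 after miR-205 (-1.27 ± 0.08). ACACA, the carboxylase that commits carbon to fatty acids, differed by -0.97 ± 0.09 and FASN, fatty acid synthase, by -0.62 ± 0.09. Both branches held lower genes, and 16 to 18 members were lower when any 1 array was left out. A sterol element, TCACNCCAC, was present in 1 of 23 promoters of the list (SREBF2), against 1.07% of tested genes.

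Endoplasmic reticulum chaperones and other XBP1-dependent genes, which fold and export secreted proteins, were also lower at 11 of 24 members (45.8%, against 16.9% of all genes). The median was -0.25, and 1 was higher (HERPUD1, 0.23, not called when any 1 array was left out). PDIA3, a disulfide isomerase, had 9.05, 9.37 and 9.24 after miR-203 and 10.77, 10.66 and 10.75 after miR-205 (-1.50 ± 0.10, adjusted p = 0.000155). SEC61B, a subunit of the channel through which secreted proteins enter, differed by -1.08 ± 0.12, MANF by -0.96 ± 0.08 and PDIA4 by -0.93 ± 0.12. The master chaperone HSPA5, or BiP, was also lower, at 10.76, 10.96 and 10.94 after miR-203 and 11.17, 11.37 and 11.31 after miR-205 (-0.40 ± 0.09, adjusted p = 0.0157). XBP1 differed by 0.14 and ATF6 by 0.13, both without a call. Without miR-205 replicate 2, and also without miR-205 replicate 3, 7 members were lower.

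Cell cycle genes were higher after miR-203. Mitotic genes peak together before division and replication genes before DNA synthesis, so both track the share of cycling cells. Of 49 mitosis and spindle genes, 30 were higher (61.2%, against 20.8% of all genes, median 0.69). Limma called 0 of them lower, also at an unadjusted p under 0.05. Of 38 DNA replication genes, 19 were higher (50%, median 0.43) and 1, POLA1, was lower. These differences were smaller than those of the interferon genes: 4 mitotic and 2 replication genes reached 2-fold. Limma's treat for a difference beyond 1.5-fold called 0 mitotic and 0 replication genes, against 18 interferon genes. At an adjusted p under 0.01, 6 mitotic and 6 replication genes were higher, against 30 interferon genes.

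AURKB, the kinase that corrects chromosome attachment, had levels of 4.27, 4.25 and 4.29 after miR-203 and 3.29, 3.37 and 3.62 after miR-205 (0.85 ± 0.10, adjusted p = 0.00119). CDC25B, a phosphatase that starts mitosis, had 5.43, 5.33 and 5.00 after miR-203 and 4.29, 4.08 and 4.43 after miR-205 (0.99 ± 0.14). In both the lowest miR-203 array was above the highest miR-205 array, as at 29.3% of all tested genes. BUB1B, a kinase of the spindle checkpoint, had 6.17, 6.62 and 6.32 after miR-203 and 5.00, 5.54 and 5.46 after miR-205 (1.04 ± 0.18, adjusted p = 0.00437). PRC1, which bundles the central spindle, had 6.18, 6.35 and 6.25 after miR-203 and 4.72, 5.50 and 5.47 after miR-205 (1.03 ± 0.21). Replicate 1 was the lowest of its group at both genes in each group. CCNB1, a cyclin of mitotic entry, differed by 0.80 ± 0.18.

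Replication genes were higher by similar amounts. MCM5, a subunit of the replicative helicase, had 5.22, 5.55 and 5.22 after miR-203 and 3.90, 4.54 and 4.39 after miR-205 (1.05 ± 0.18, adjusted p = 0.00475). TK1, thymidine kinase, had 6.44, 6.61 and 6.35 after miR-203 and 4.83, 5.85 and 5.44 after miR-205 (1.09 ± 0.24, adjusted p = 0.0118). MCM3 differed by 0.67 ± 0.12 and the polymerase subunit POLE2 by 0.73 ± 0.13. POLA1, the catalytic subunit of the priming polymerase, had 2.86, 2.70 and 2.72 after miR-203 and 3.07, 3.16 and 3.16 after miR-205 (-0.37 ± 0.08), levels close to the floor.

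These counts depended on single arrays and on the filter. The mitotic list, as the median over members of each level minus its mean over the 6 arrays, stood at 0.03, 0.59 and 0.42 on the miR-203 arrays and at -0.63, -0.14 and -0.23 on the miR-205 arrays. The groups did not overlap, but miR-203 replicate 1 lay nearest to the miR-205 arrays, and miR-205 replicate 1 lay lowest. The number of higher mitotic genes was 12 without miR-203 replicate 2, 16 without miR-203 replicate 3, 14 without miR-205 replicate 1, 18 without miR-205 replicate 3 and 35 without miR-203 replicate 1. The number of higher replication genes was 11 without miR-203 replicate 2. With no filter on low signal, 6 mitotic and 7 replication genes were higher, PRC1, CCNB1 and TK1 no longer among them, although the filter does not change the differences themselves. The share of mitotic genes that differ is therefore less firm than that of the interferon, androgen-responsive or cholesterol genes.

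**Figure D4:**
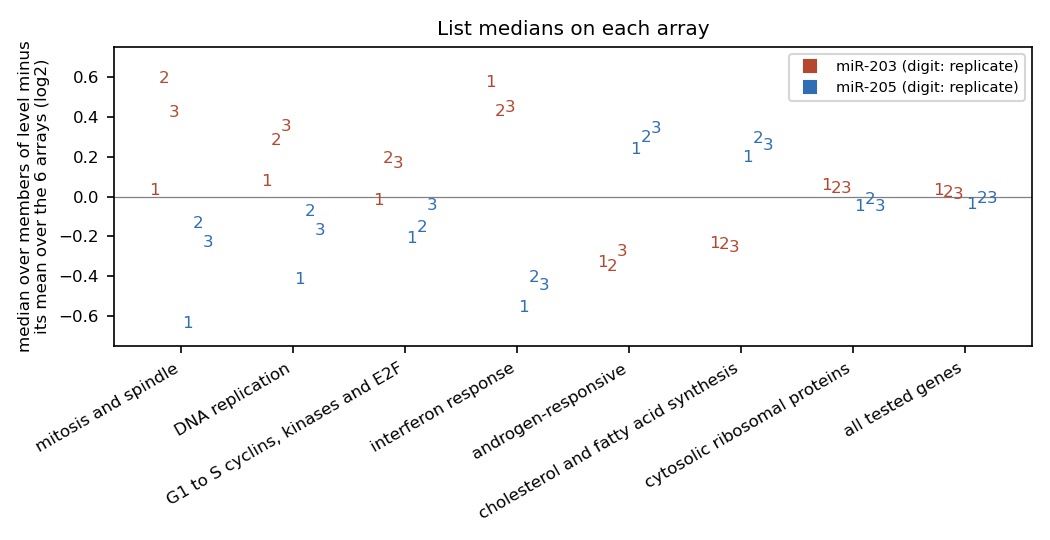
Median over list members of the level minus its mean over the 6 arrays (log2, vertical axis), for 7 gene lists and all tested genes; each digit is an array, numbered by replicate, with miR-203 left of miR-205. The mitotic list spreads most within groups, from 0.03 to 0.59 after miR-203 and from -0.63 to -0.14 after miR-205.

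Of 19 regulators of the step from G1 to S phase, 5 were higher (26.3%, against 20.8% of all genes, median 0.19). The limma fit called 0 lower, also at an unadjusted p under 0.05. Without miR-203 replicate 1, 9 were higher. CCND1, the cyclin that answers growth factors, had 8.0, 7.56 and 7.54 after miR-203 and 6.82, 6.47 and 6.66 after miR-205 (1.05 ± 0.15, adjusted p = 0.00245). CDK2 differed by 0.68 ± 0.13. E2F1 and RB1, the activator and the repressor of S phase genes, differed by -0.07 and -0.28 without a call.

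The promoters of mitotic genes are known to carry the cell cycle homology region, searched here as TTTGAA on both strands. It was present in 28 of 41 mitotic promoters (68.3%), against 9.01% of tested genes and 1 of 35 replication promoters. CCAAT was present in 32 of the 41 (78.0%), against 39.0% of tested genes. BUB1B and PRC1 are printed as named members with a match close to the start, at -23 and -20, marked in capitals.
BUB1B promoter, chr15:40160819-40161118, plus strand: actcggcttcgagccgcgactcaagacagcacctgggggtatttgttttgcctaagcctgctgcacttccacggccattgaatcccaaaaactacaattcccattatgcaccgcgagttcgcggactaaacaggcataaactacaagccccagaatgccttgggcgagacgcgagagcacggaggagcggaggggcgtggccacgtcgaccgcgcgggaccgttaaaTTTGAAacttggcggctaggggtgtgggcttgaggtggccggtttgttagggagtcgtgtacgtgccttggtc
PRC1 promoter, chr15:90994486-90994785, minus strand: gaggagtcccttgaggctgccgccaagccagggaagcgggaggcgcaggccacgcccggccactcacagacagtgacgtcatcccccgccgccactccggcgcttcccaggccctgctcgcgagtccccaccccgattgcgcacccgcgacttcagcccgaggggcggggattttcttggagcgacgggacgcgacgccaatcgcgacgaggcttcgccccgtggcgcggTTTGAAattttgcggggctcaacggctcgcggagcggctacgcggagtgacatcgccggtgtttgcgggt

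Genes of growth factor signalling went both ways. Immediate early genes, which answer signals within minutes, were higher at 9 of 19 (47.4%, against 20.8% of all genes, median 0.27). The limma fit called 0 lower, with 3 lower at an unadjusted p under 0.05. When any 1 array was left out, 6 to 8 were higher and 0 to 3 lower. With the probe sets of a gene averaged, 6 were higher and the median was 0.13. KLF4, a zinc finger factor of differentiation, had 5.84, 5.98 and 6.14 after miR-203 and 4.30, 4.32 and 4.40 after miR-205 (1.64 ± 0.10, 3.13-fold). DUSP2, a phosphatase of MAP kinases, differed by 1.55 ± 0.11, CCN1 by 1.09 ± 0.13 and EGR1 by 0.73 ± 0.08. These 4 did not overlap between groups, as was so for 29.3% of all tested genes in this direction.

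Of 23 RAS and MAP kinase genes, 5 were higher and 5 lower (21.7% each), near the 20.8% and 16.9% of all genes. HRAS had 7.65, 7.35 and 7.19 after miR-203 and 6.10, 6.04 and 6.18 after miR-205 (1.29 ± 0.13), and the adaptor GRB2 differed by 1.01 ± 0.09. The adaptor SHC1 differed by -0.95 ± 0.07 and the inhibitor SPRY1 by -0.85 ± 0.16. Of 21 PI3K, AKT and mTOR genes, 6 were higher (28.6%) and 5 lower (23.8%). RPS6KB2, a ribosomal S6 kinase, had 5.26, 5.27 and 5.16 after miR-203 and 3.14, 3.15 and 3.38 after miR-205 (2.01 ± 0.10, 4.02-fold, adjusted p = 4.36e-05). MLST8, a subunit of mTOR complexes, differed by 1.08 ± 0.11, EIF4EBP1, the translation repressor that mTOR switches off, by 1.05 ± 0.08, and the mTOR inhibitor TSC2 by -0.71 ± 0.12. In this list 3 members were lower without miR-203 replicate 2, without miR-203 replicate 3 or without miR-205 replicate 2.

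Genes reported elsewhere as targets of each microRNA were set against this contrast, in which a transcript lowered by miR-203 alone would be negative and one lowered by miR-205 alone positive. No target site was searched here. Of 17 tested miR-203 targets, 4 were lower after miR-203 (23.5%, against 16.9% of all genes) and 1 was higher, with a median of -0.13, which ran from -0.18 to -0.07 when 1 array was left out and was nearest to 0 without miR-203 replicate 1, where 2 were higher. LASP1, an actin-binding protein, had 5.86, 6.04 and 5.73 after miR-203 and 7.49, 7.72 and 7.73 after miR-205 (-1.77 ± 0.11, 3.41-fold lower, adjusted p = 0.000127). EGFR, the epidermal growth factor receptor, had 3.02, 3.13 and 2.84 after miR-203 and 4.43, 3.96 and 4.48 after miR-205 (-1.29 ± 0.16). At both the groups did not overlap, as at 23.3% of all tested genes in this direction. SNAI2, a repressor of epithelial genes, had 2.39, 2.77 and 2.50 after miR-203 and 3.48, 3.04 and 3.13 after miR-205 (-0.67 ± 0.15), near the floor. BIRC5, or survivin, also a mitotic gene, was higher by 0.88 ± 0.19. Others did not pass: ABL1 differed by -0.13, E2F3 by -0.02 and SRC by -0.27.

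Of 15 tested miR-205 targets, 5 were higher after miR-203 (33.3%, against 20.8% of all genes) and 3 lower, with a median of 0.22. That median was 0.05 without miR-203 replicate 2 and 0.14 without miR-205 replicate 2, and 1 or 2 were lower when any 1 array was left out. LYN, a SRC family kinase, had 5.97, 5.54 and 5.31 after miR-203 and 3.94, 4.05 and 4.05 after miR-205 (1.59 ± 0.16, 3.01-fold, adjusted p = 0.000668). ERBB3, a receptor that pairs with ERBB2, had 7.98, 7.87 and 7.90 after miR-203 and 7.34, 7.40 and 7.5 after miR-205 (0.51 ± 0.08). The transcription factor YY1 had 9.13, 9.22 and 9.29 after miR-203 and 8.65, 8.65 and 8.77 after miR-205 (0.52 ± 0.08). In all 3 the lowest miR-203 array was above the highest miR-205 array, which also held for 29.3% of all tested genes. HMGB3 differed by 0.71 ± 0.16 and MED1 by 0.49 ± 0.12; MED1 lost its call without miR-205 replicate 3 (0.47, adjusted p = 0.0554). PHLPP2, a phosphatase of AKT, differed by -0.46 ± 0.11 and the kinase YES1 by -0.59 ± 0.15, opposite to LYN. YES1 lost its call without miR-203 replicate 2 (-0.62), miR-205 replicate 2 (-0.56) or miR-205 replicate 3 (-0.55). BCL2L2 stands in both target lists and differed by -0.29, a call that any left-out array ended (-0.22 to -0.33). With no filter on low signal SNAI2, BIRC5, HMGB3, MED1, YES1 and BCL2L2 were not called.

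**Figure D5:**
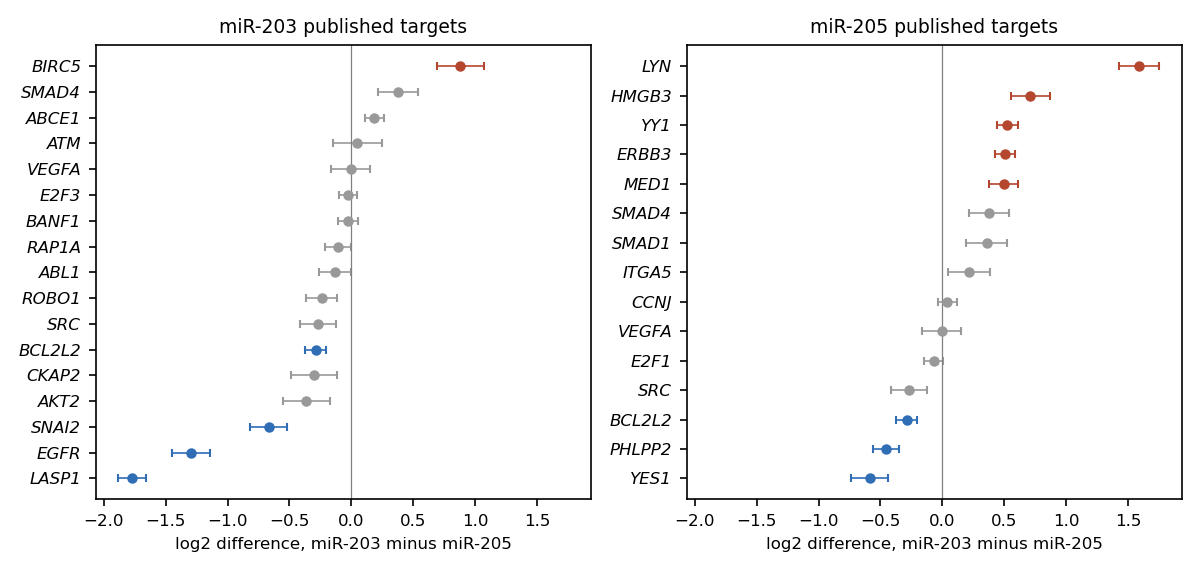
Log2 difference in total RNA, miR-203 minus miR-205 (horizontal axis, whiskers SE), for the tested genes reported elsewhere as miR-203 targets (left) and miR-205 targets (right); red points are called higher after miR-203, blue points called lower, grey points not called. LASP1 (-1.77) and EGFR (-1.29) lie lowest among the miR-203 targets and LYN (1.59) highest among the miR-205 targets.

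Adhesion genes were lower more often than higher. Of 21 tested genes of epithelial junctions and of the transition to mesenchyme, 9 were lower (42.9%, against 16.9% of all genes). Only 2 were higher (9.52%), and the median was -0.24. TJP1, a scaffold of tight junctions, had 7.94, 8.28 and 7.88 after miR-203 and 9.65, 9.56 and 9.60 after miR-205 (-1.57 ± 0.12). DSG2, a desmosomal cadherin, differed by -1.38 ± 0.11 and ITGB1, the common beta integrin, by -0.98 ± 0.08. OCLN, a membrane protein of tight junctions, was higher by 1.03 ± 0.12, and the cadherin CDH1 differed by 0.09 without a call.

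Single members of stress, metabolic and signalling lists differed by more than 2-fold. COX6A1, a subunit of cytochrome oxidase, had 8.34, 9.15 and 8.69 after miR-203 and 11.21, 11.19 and 11.09 after miR-205 (-2.43 ± 0.19, 5.40-fold lower, adjusted p = 0.000257). It stood alone with UQCR10 (-1.18 ± 0.09) past 2-fold in the fall among 63 oxidative phosphorylation genes. Of these, 11 were higher (17.5%, against 20.8% of all genes) and 4 lower (6.35%, against 16.9%), with a median of 0.10. Without miR-203 replicate 2, 5 were higher, and without miR-205 replicate 1, 7 were. FTL, the ferritin light chain, differed by -1.20 ± 0.08. BNIP3L, a receptor for the removal of mitochondria, had 7.03, 7.42 and 7.43 after miR-203 and 9.01, 9.01 and 8.96 after miR-205 (-1.70 ± 0.12). The arginine transporter SLC7A1 differed by -1.55 ± 0.17. In its list, the ATF4 genes, 11 of 34 were higher (32.4%, against 20.8% of all genes) and 3 lower (8.82%), with a median of 0.16. The higher ATF4 genes stayed under 2-fold (at most 0.84), while 2 of the lower reached it. When any 1 array was left out, 8 to 12 ATF4 genes were higher. Of 20 p53 targets 4 were higher (20.0%, against 20.8% of all genes). Only 1 was lower (5%, against 16.9%), the death receptor TNFRSF10B (-1.32 ± 0.09). Without miR-203 replicate 1 or 3, 2 p53 targets were higher, and without miR-205 replicate 2 or 3, 1 was. Of 9 genes of the BCL2 family 4 were higher (44.4%, against 20.8% of all genes) and 2 lower (22.2%, against 16.9%). When any 1 array was left out, 1 of this family was lower. PMAIP1, or NOXA, a BCL2 antagonist that stands in both lists, had 8.70, 8.23 and 8.47 after miR-203 and 7.11, 6.81 and 7.0 after miR-205 (1.49 ± 0.14). Of 21 genes of the TGF-beta, BMP and SMAD pathways 5 were higher (23.8%) and 4 lower (19.0%), near the 20.8% and 16.9% of all genes. Without miR-203 replicate 2, miR-205 replicate 1 or miR-205 replicate 3, 2 were lower. The decoy receptor BAMBI differed by 1.65 ± 0.09 and ID2, a target of BMP signals, by -1.50 ± 0.25.

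The largest rises were ranked among called genes without overlap and with neither group at the floor, which leaves out bounds such as RSAD2. Of the 15 largest, 12 were members of the interferon list, most of them named above. Those outside that list were PLAAT4, a phospholipase-related gene (2.62 ± 0.10), the scavenger receptor COLEC12 (2.22 ± 0.12) and MKNK2. MKNK2, a kinase of the cap-binding factor eIF4E, was bright in both groups, at 11.00, 10.91 and 10.96 after miR-203 and 8.74, 8.60 and 8.92 after miR-205 (2.20 ± 0.10). The 15 largest falls by the same rule held genes of many roles. KIF5C, a kinesin motor, had 3.69, 3.32 and 3.00 after miR-203 and 5.80, 5.86 and 6.05 after miR-205 (-2.57 ± 0.17). SOCS2, an inhibitor of growth hormone signals, had 3.35, 3.45 and 3.45 after miR-203 and 5.75, 5.92 and 6.01 after miR-205 (-2.48 ± 0.09). Both were low after miR-203 and well measured after miR-205. APPBP2 differed by -2.36 ± 0.11, TTC39A by -2.34 ± 0.14, CDC42EP3 by -2.13 ± 0.10, CREBL2 by -2.11 ± 0.13, GM2A by -2.09 ± 0.18 and NDRG3 by -2.0 ± 0.09. EXOC5, a subunit of the exocyst, differed by -1.96 ± 0.14, and IGF1R, the receptor of insulin-like growth factor, had 2.97, 3.25 and 3.25 after miR-203 and 5.19, 4.73 and 5.19 after miR-205 (-1.88 ± 0.15).

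The remaining lists had medians between -0.15 and 0.10. Cytosolic ribosomal proteins had 7 of 47 higher (14.9%, against 20.8% of all genes) and 2 lower (4.26%, against 16.9%), with a median of 0.07. Proteasome genes had 2 of 30 higher (6.67%) and 4 lower (13.3%), with a median of 0.10. Heat shock proteins had 2 of 19 higher and 3 lower (median 0.04), oxidative stress genes 3 of 22 each way (median -0.10) and glycolysis and hypoxia genes 3 of 27 higher and 6 lower (median -0.01). Of 15 genes of the microRNA machinery, 4 were higher and 2 lower, with AGO3 at 0.84 ± 0.15. When any 1 array was left out, 2 to 5 ribosomal protein genes were higher, 1 to 4 proteasome genes, and 1 to 4 genes of the microRNA machinery.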

How the data were processed

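The authors deposited log2 values for 22277 probe sets on each of 24 arrays, already background-corrected, normalized and summarized. GCRMA, RMA and R 2.9.0 are named in the submitters' processing notes, in no order of use. No step before the deposited values was repeated. For arrays no read depth applies, and 3 arrays per group limit the precision. GCRMA-type values pile up at a floor, which compresses differences of dim transcripts; a group within 0.05 of the floor on all 3 arrays has no measured level, and a difference against it is a lower bound.

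By the platform annotation 19064 probe sets carry 1 gene symbol, 1043 several and 2108 none here, and 62 are controls; 19052 matched a RefSeq gene by ID. The 11963 genes (4310 with several probe sets) each took the probe set whose mean over the 24 arrays was highest. Genes under a mean of 2.85, the median over probe sets, were left out, which left 6782.

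The 6 arrays were fitted with limma 3.58.1 (lmFit, eBayes) in R 4.3.3, without covariates, and called at a Benjamini-Hochberg adjusted p under 0.05. With 200 changed genes simulated among 6782, the same fit recovered 61.2%, 86.6% and 98.5% of genes changed 1.5-, 2- and 4-fold, with 6 false calls. The simulation had independent noise, no difference between normalization runs and a far smaller share of changed genes than the 37.7% called here. Its recovery and false calls therefore need not hold for the real arrays. The genes named were first the 15 called genes with the largest difference in each direction, no overlap between groups and neither group at the floor. Up to 5 bounds each way were added, and the list members with the smallest p (up to 10 for the large lists, otherwise 6). Every tested published target, KLK3 and ERBB3 were also named. Further members are named to complete a list's description, after their values were seen. Members, gene lists and rule were chosen with earlier results of these data known. Promoter and microRNA sequences are RefSeq's. Motifs were chosen from textbook elements after the lists' results were known. Alternatives changed the filter, the probe set, the scaling, the spread prior, array weights, the arrays in the fit, the threshold, a block for the replicate number, and left out each array once.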

Additional observations from a re-analysis of the deposited data

How the results depend on the processing

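The count of called genes, 2555 by the main setting, stayed between 1877 and 3033 under the other filters, probe sets, scalings, priors, weights, arrays in the fit and left-out arrays. Leaving out 1 array gave 1877 to 2364 calls, 964 to 1285 higher and 862 to 1079 lower. Two-sided calls at an adjusted p under 0.01 numbered 1351 (675 higher, 676 lower), and limma's treat for a change of at least 1.5-fold called 224 (88 higher, 136 lower), both stricter by construction. The share of calls that were higher was 55.2%, and 59.2% with spiked controls as the centre. PSMD12 turned from 0.52 to -0.16 (adjusted p = 0.114) when its probe sets were averaged, and of 192 called named genes 163 kept the call in every fit that left out 1 array. With a mean filter of 5 or more, 14 interferon and 19 mitotic genes were higher, with fewer members tested; the loss of mitotic and replication calls with no filter has a cause that was not tested. With all 24 arrays in the fit AURKB (0.85, adjusted p = 0.054), CCNB1 (0.80, adjusted p = 0.0954), EGR1 (0.73, adjusted p = 0.0813) and PHLPP2 (-0.46, adjusted p = 0.0875) were not called. No scaling turned the median of the interferon, androgen-responsive, cholesterol, mitotic or replication list.

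The labels give no pairing by replicate number. Deviations from the group means correlated at 0.14, 0.09 and 0.27 for the same number, so not every pair was over 0.1, and at -0.25 to 0.09 for other numbers. Every array correlated best with its own number, a hint from the data and not from the design. For miR-205 replicate 2 the margin was slight, 0.0941 against 0.0925 with miR-203 replicate 1. Deviations within a group cancel out, so these correlations are not independent of each other. With the number as a replicate block, 2628 genes were called (1471 higher, 1157 lower), 41 mitotic and 24 replication genes among those higher. Dim genes are the limit of these arrays, as about 4 in 10 probe sets lay near the floor.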
